A study of Arabidopsis thaliana with 3 samples.

Results

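RNA of redox genes was measured in whole Arabidopsis thaliana seedlings of 3 genotypes, namely Col-0, which is the wild type, pwo1, and crwn1 crwn2, a double mutant. The genes were peroxidases, glutaredoxins, thioredoxins, catalase, germin-like proteins and ascorbate oxidase, chosen by keywords in the gene descriptions of the authors' deposited tables, with protein disulfide isomerases left out. They numbered 39 of the 2666 genes listed in either table, of which 21 were in the pwo1 table of 1239 genes and 27 in the crwn1 crwn2 table of 1935 genes. PWO1 carries a PWWP domain and takes part in gene silencing by Polycomb, while CRWN1 and CRWN2 belong to the lamina-like meshwork under the plant nuclear envelope.

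All 3 genotypes were harvested at 14 days after growth on vertical MS plates in long days, from seed stratified for 2 days, and the design text gives 3 biological replicates each. The labels used here name no alleles for the mutants. Each table holds the authors' log2 fold changes and unadjusted p-values by edgeR and by Cuffdiff for genes with a small p in both tools, so a gene was called changed when its table lists it. Levels, library depths and the spread between replicates were not analysed here, the labelled tissue could not be checked against marker levels, and a gene that is not listed is not shown to be unchanged. In whole seedlings fewer cells of a type and less RNA per cell cannot be told apart. Both mutated genes of crwn1 crwn2 were negative in the authors' deposited table, where CRWN1 stood at -3.03 and CRWN2 at -2.42 on the log2 scale. The pwo1 table does not list PWO1 (AT3G03140) itself, so its direction was taken to follow the crwn1 crwn2 table, which has a header of the same form.

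Hydrogen peroxide is made in plants by superoxide dismutases, NADPH oxidases and some peroxidases, and it is removed by catalase, ascorbate peroxidase, glutathione peroxidase and peroxiredoxin. Class III peroxidases are secreted haem enzymes of the cell wall that use peroxide to cross-link phenolics and proteins or can themselves generate reactive oxygen. Thioredoxins and glutaredoxins pass electrons to disulfide bonds of other proteins, and plant-specific glutaredoxins with paired cysteines act with transcription factors in defence, development and nutrient signalling.

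The redox genes listed for each mutant were mostly higher there. Of the 21 in the pwo1 table, 16 were higher and 5 lower, so that 76.2% were higher, where 42.5% of all listed genes were higher and 57.5% lower. For crwn1 crwn2, 19 of 27 were higher and 8 lower, so that 70.4% were higher, where 56.5% of all listed genes were higher and 43.5% lower. The median log2 fold change of the redox genes was 0.95 in the authors' deposited table for pwo1, where that of all listed genes was -0.53, and 1.01 in the table for crwn1 crwn2, where that of all listed genes was 0.53. Changes of at least 2-fold were found for 13 of 21 redox genes in pwo1, compared with 34.7% of all listed genes, and for 18 of 27 in crwn1 crwn2, compared with 40.4%. These shares describe the listed genes and were not tested. Cuffdiff gave the same sign as edgeR in the authors' deposited tables for each of these 21 and 27 values. Listed genes have a small p in both tools, so the shared sign is not independent support.

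**Figure D1:**
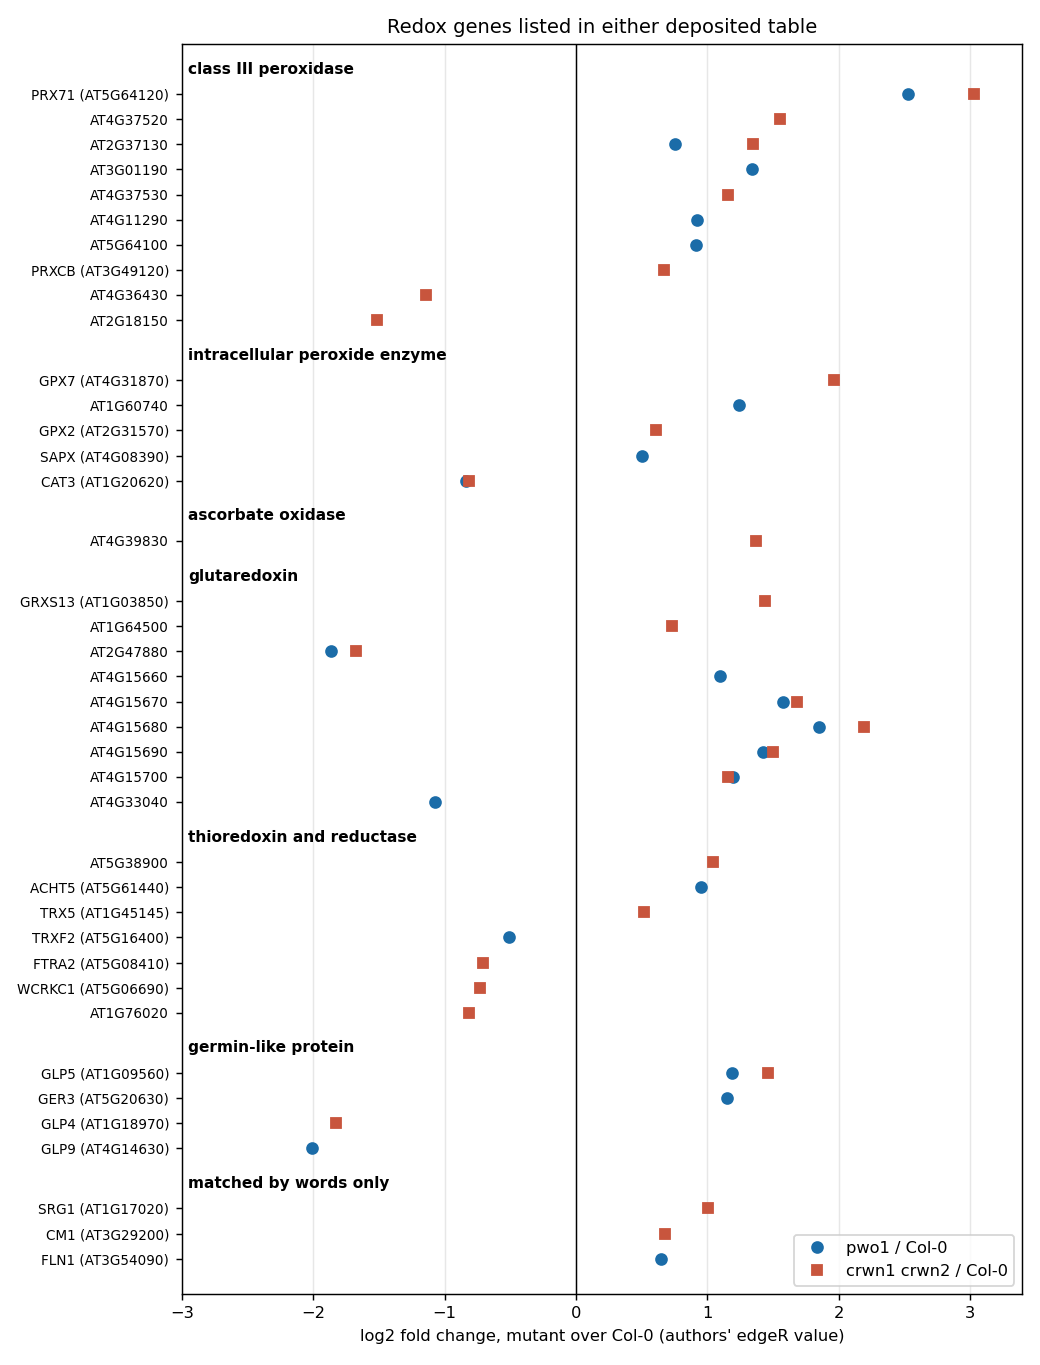
Log2 fold change of the 39 redox genes (x axis, mutant over Col-0, the authors' edgeR values), grouped by family, with circles for pwo1 and squares for crwn1 crwn2. A missing symbol means that the gene is not listed for that mutant. PRX71 lies farthest to the right in both mutants, at 2.53 and 3.03, and CAT3 and AT2G47880 lie to the left of 0 in both.

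**Figure D2:**
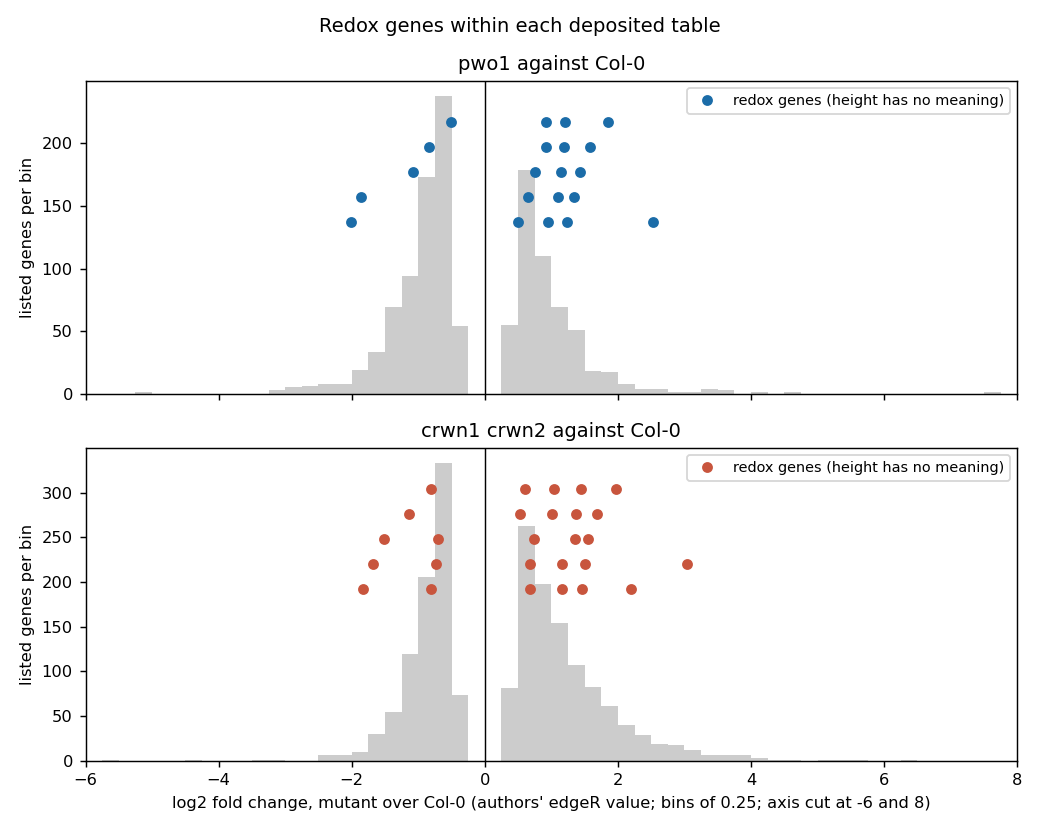
Histogram of the log2 fold changes of all listed genes (x axis, bins of 0.25, cut at -6 and 8, y axis number of genes), with the redox genes as points whose height has no meaning. For pwo1, 16 of 21 points lie to the right of 0, and for crwn1 crwn2, 19 of 27.

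Class III peroxidases were the largest group, with 10 members. In pwo1 5 were listed and all 5 were higher, and in crwn1 crwn2 7 were listed, 5 higher and 2 lower. Of all listed genes, 42.5% were higher in pwo1 and 56.5% in crwn1 crwn2. Members were chosen by being listed, so the numbers listed cannot be read as an enrichment. PRX71 (AT5G64120, chromosome 5), a cell wall peroxidase induced by hypo-osmolarity, had the largest rise of the redox genes in each mutant. Its log2 fold change in the authors' deposited tables was 2.53 in pwo1 (5.77-fold, edgeR p = 3.67e-14) and 3.03 in crwn1 crwn2 (8.18-fold, edgeR p = 1.47e-21). By size of change it ranked 32 among the 1239 genes for pwo1 and 43 among the 1935 for crwn1 crwn2. AT5G64100 lies near PRX71 on the same strand, with 1 other peroxidase gene, AT5G64110, between them. In pwo1 it stood at 0.92 in the authors' deposited table (edgeR p = 2.29e-04) and was not listed for crwn1 crwn2, while AT5G64110 was listed in neither. The coding sequences of AT5G64100 and PRX71 are 62.5% identical in the reference, and no stretch of 50 bases of either is found unchanged in another gene.

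AT2G37130, a peroxidase annotated to defence against fungi, was listed in both tables. The authors' deposited tables gave 0.76 for it in pwo1 (edgeR p = 3.72e-04) and 1.35 in crwn1 crwn2 (edgeR p = 1.76e-16). Listed for pwo1 alone were AT3G01190, at 1.34 (edgeR p = 6.88e-07), and AT4G11290, at 0.92 (edgeR p = 1.06e-03), in the authors' deposited table. Peroxidases with a root term in the deposited expression notes were 4 of the 10, namely AT3G01190, AT5G64100, AT4G37530 and PRXCB, and all 4 were higher where listed. Without such a term, PRX71, AT2G37130, AT4G11290 and AT4G37520 were also higher where listed, and AT2G18150 and AT4G36430 were lower. A missing term does not show that a gene is absent from roots. None of 12 root marker genes, among them SHR, SCR, COBL9 and CASP1, was listed for either mutant. Of protein-coding reference genes only 4.38% were listed for pwo1 and 6.91% for crwn1 crwn2. The lack of listed markers among so few genes therefore does not show that root content was unchanged. Any part of root abundance in these values was not tested.

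The neighbouring peroxidase genes AT4G37520 and AT4G37530 were higher in crwn1 crwn2 and were not listed for pwo1. In the authors' deposited table AT4G37520 was at 1.56 (edgeR p = 1.09e-12) and AT4G37530 at 1.16 (edgeR p = 8.49e-07). Cuffdiff gave higher values in the authors' deposited table, 1.79 and 1.62. The coding sequences of these genes are 92.5% identical, and 8.82% of the 50-base windows of each are found unchanged in the other, so the split of reads between them is uncertain. PRXCB (AT3G49120, also named PRX34), a wall peroxidase linked to cell elongation and to peroxide production in defence, was at 0.67 in the authors' deposited table for crwn1 crwn2 (edgeR p = 9.46e-04). Its coding sequence is 90.5% identical to that of its relative AT3G49110, with 9.77% of its windows in common.

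The peroxidases that fell were both in crwn1 crwn2. AT2G18150, annotated to nematode response, was at -1.52 in the authors' deposited table (edgeR p = 2.40e-03), and AT4G36430, annotated to response to other organisms, was at -1.14 (edgeR p = 1.40e-03). Their coding sequences are 80.5% identical to each other, and AT2G18150 has 8.99% of its windows in common with AT2G18140. A further peroxidase, PRXR1 (AT4G21960), has a deposited description without the keyword and is not counted above. It was at -1.02 in the authors' deposited table for crwn1 crwn2 (edgeR p = 1.23e-08) and was named after its value was seen. Of 74 genes with a peroxidase family product in the reference, 5 (6.76%) were listed for pwo1 and 8 (10.8%) for crwn1 crwn2, where 4.38% and 6.91% of protein-coding reference genes were listed. All 5 were higher in pwo1, and 5 were higher and 3 lower in crwn1 crwn2.

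Glutaredoxins changed in both directions. Of 9 members, 7 were listed for pwo1, 5 higher and 2 lower, and 7 for crwn1 crwn2, 6 higher and 1 lower. Every member is listed for at least 1 mutant by the way it was chosen, so these counts cannot be read as an enrichment, which was not tested. Of 111 genes with a thioredoxin or glutaredoxin product in the reference, 10 (9.01%) were listed for pwo1 and 11 (9.91%) for crwn1 crwn2, where 4.38% and 6.91% of protein-coding reference genes were listed. Of the glutaredoxins, 5 are direct neighbours on 1 strand of chromosome 4, from AT4G15660 to AT4G15700, annotated as thioredoxin superfamily proteins with a plant glutaredoxin domain. All 5 were higher in pwo1 and 4 of them in crwn1 crwn2. The reference coding sequence around the paired cysteine codons is shown to compare the cluster with 3 related glutaredoxins, of which AT2G47880 and AT4G33040 fell. Each stretch holds 48 bases of the coding strand from build TAIR10.1 of RefSeq, and the capitals mark the 2 cysteine codons and the 2 codons after them.
AT4G15660: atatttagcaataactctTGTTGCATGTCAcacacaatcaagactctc
AT4G15670: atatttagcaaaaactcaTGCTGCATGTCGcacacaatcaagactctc
AT4G15680: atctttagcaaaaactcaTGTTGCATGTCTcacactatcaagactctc
AT4G15690: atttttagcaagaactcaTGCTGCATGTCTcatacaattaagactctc
AT4G15700: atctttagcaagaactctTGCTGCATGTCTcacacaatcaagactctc
AT2G47880: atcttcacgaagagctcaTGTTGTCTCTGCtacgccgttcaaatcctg
AT4G33040: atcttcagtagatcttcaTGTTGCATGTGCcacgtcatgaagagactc
GRXS13: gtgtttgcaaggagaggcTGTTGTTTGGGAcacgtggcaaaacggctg
The stretches of the cluster lie on the plus strand at chr4:8925970-8926017, chr4:8929279-8929326, chr4:8931855-8931902, chr4:8934486-8934533 and chr4:8937587-8937634, in the order of the lines. That of AT2G47880 lies at chr2:19605166-19605213 on the plus strand. Those of AT4G33040 and GRXS13 lie on the minus strand at chr4:15941010-15941057 and chr1:977440-977487. The fourth capital codon encodes cysteine in AT2G47880 and AT4G33040 and does not in the 5 cluster genes or in GRXS13. Within the cluster 4 to 7 of the 48 bases differ from AT4G15660, compared with 22 in AT2G47880, 17 in AT4G33040 and 27 in GRXS13.

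Within the cluster the middle gene, AT4G15680, had the highest fold change in each mutant. The authors' deposited tables gave it 1.85 in pwo1 (3.61-fold, edgeR p = 1.25e-03) and 2.197 in crwn1 crwn2 (4.58-fold, edgeR p = 1.97e-05). AT4G15670 was at 1.57 and 1.68, AT4G15690 at 1.423 and 1.504, and AT4G15700 at 1.20 and 1.16, in pwo1 and crwn1 crwn2 of the authors' deposited tables. AT4G15660, the first gene of the row, was at 1.097 in pwo1 (edgeR p = 3.86e-03) and was not listed in the authors' deposited table for crwn1 crwn2. In pwo1 the edgeR p-values of the cluster in the authors' deposited table ran from 1.25e-03 for AT4G15680 to 3.86e-03 for AT4G15660, the largest in that table. With an adjustment over all reference genes, which gives an upper bound, the adjusted p from the authors' edgeR values in pwo1 lay between 0.0504 and 0.119 for all 5 genes. The same bound for crwn1 crwn2 was between 0.0011 and 0.0423 for 3 genes and 0.0882 for AT4G15700.

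The 5 coding sequences have 309 bases each and are 88.3 to 93.2% identical in pairs. Between 1.54% and 13.8% of their 50-base windows are found unchanged in another gene. The sources used here do not say how the authors' counting treated such reads, so the split between these genes is uncertain. Without the cluster, 11 of 16 redox genes were higher in pwo1 and 15 of 23 in crwn1 crwn2. These shares were 68.75% and 65.2%, compared with 42.5% and 56.5% of all listed genes. The median log2 fold change was then 0.84 in pwo1 and 0.68 in crwn1 crwn2, compared with -0.53 and 0.53 for all listed genes. Changes of at least 2-fold remained for 8 of 16 and 14 of 23, compared with 34.7% and 40.4% of all listed genes. In crwn1 crwn2 the median and the share higher were thus closer to those of all listed genes than with the cluster.

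**Figure D3:**
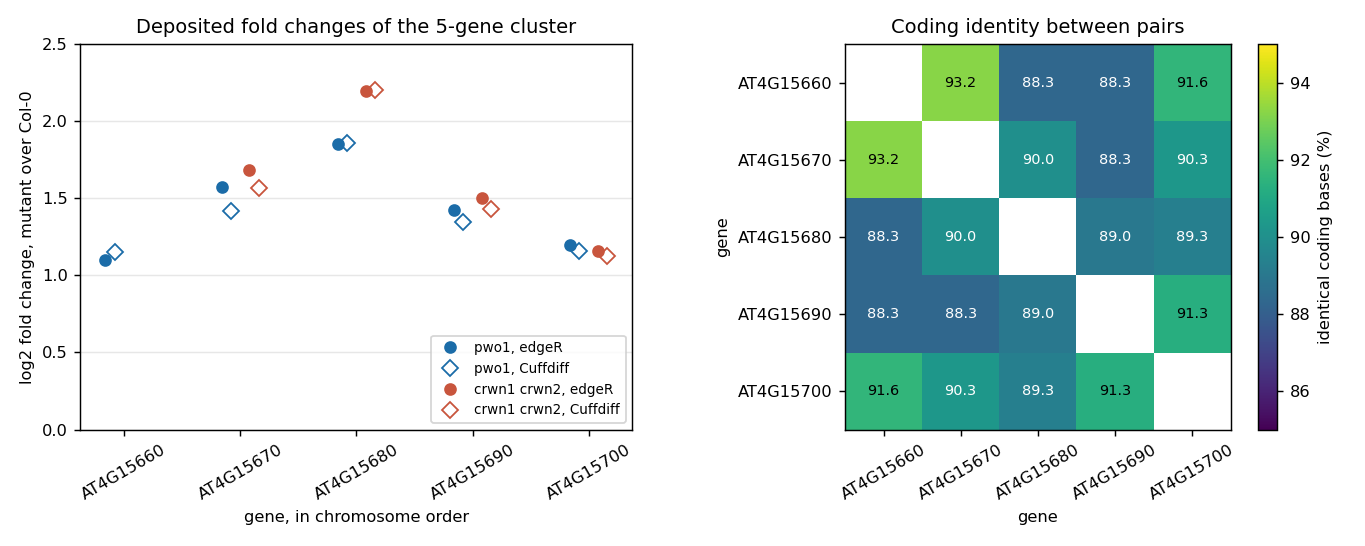
Left, log2 fold change of the 5 neighbouring glutaredoxin genes in chromosome order (y axis, mutant over Col-0) by edgeR (filled) and Cuffdiff (open), for pwo1 (blue) and crwn1 crwn2 (red). Right, percent identity between their reference coding sequences. The edgeR values lie between 1.097 and 2.197, with AT4G15680 highest in each mutant, and the identities lie between 88.3 and 93.2%.

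AT2G47880, a glutaredoxin of the same plant domain family, was lower in both mutants. The authors' deposited tables gave -1.86 in pwo1 (edgeR p = 3.31e-06) and -1.67 in crwn1 crwn2 (edgeR p = 9.96e-06), against the direction of the chromosome 4 cluster. It overlaps AT2G47885 on the other strand of the reference annotation, with 34.2% of its windows in common with that gene, so reads of these genes cannot be told apart without strand. AT4G33040, also of this domain family, was at -1.07 in the authors' deposited table for pwo1 (edgeR p = 2.76e-04) and was not listed for crwn1 crwn2. GRXS13 (AT1G03850), which facilitates infection by Botrytis cinerea, was at 1.44 in the authors' deposited table for crwn1 crwn2 (2.72-fold, edgeR p = 9.93e-07). AT1G64500, a glutaredoxin-like protein of light-stimulated actin bundling and chloroplast movement, was at 0.73 in the same deposited table of the authors (edgeR p = 5.64e-05).

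Thioredoxins and a subunit of their reductase changed in both directions. Of 7 members, 2 were listed for pwo1, 1 higher and 1 lower, and 5 for crwn1 crwn2, 2 higher and 3 lower. Members were chosen by being listed, so these counts cannot be read as an enrichment. The share of the 111 thioredoxin and glutaredoxin products listed, 9.01% for pwo1 and 9.91% for crwn1 crwn2, covers both kinds of protein together. Among protein-coding reference genes 4.38% and 6.91% were listed. Chloroplast proteins were 4 of the 7. In pwo1 TRXF2 was lower and ACHT5 higher, and in crwn1 crwn2 WCRKC1 and FTRA2 were lower. Of all listed genes, 57.5% were lower in pwo1 and 43.5% in crwn1 crwn2. Outside this family, the word chloroplast was in the deposited descriptions of SAPX, higher in pwo1, and AT1G64500, higher in crwn1 crwn2. AT1G64500 is described by chloroplast movement, which does not place its protein in the chloroplast. A description without the word does not show that a protein is absent from chloroplasts. TRXF2, an f-type thioredoxin of the stroma that activates enzymes of carbon fixation, was at -0.51 in the authors' deposited table for pwo1 (edgeR p = 9.99e-04). WCRKC1, an atypical stromal thioredoxin, was at -0.73 (edgeR p = 3.45e-04), and FTRA2, a subunit of the ferredoxin:thioredoxin reductase that supplies electrons in light, was at -0.71 (edgeR p = 2.39e-05), in the authors' deposited table for crwn1 crwn2. ACHT5, an atypical chloroplast thioredoxin, was at 0.95 in the authors' deposited table for pwo1 (edgeR p = 3.94e-10).

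Of 6 leaf marker genes 5 were lower in pwo1 and 1 in crwn1 crwn2. Among protein-coding reference genes 4.38% and 6.91% were listed, and 57.5% and 43.5% of all listed genes were lower. Log2 fold changes in the authors' deposited table for pwo1 were -0.97 for LHCB1.1, -1.36 for LHCB2.1 and -1.14 for LHCA1. The chloroplast regulators GLK1 and GLK2 were at -0.76 and -0.75 there, and GLK1 was at -0.73 in the authors' deposited table for crwn1 crwn2. The part of these markers in the chloroplast thioredoxin values was not tested. Outside the chloroplast, TRX5, the cytosolic thioredoxin h5 needed for sensitivity to the toxin victorin, was at 0.52 in the authors' deposited table for crwn1 crwn2 (edgeR p = 1.82e-03). AT5G38900, a protein with a DSBA oxidoreductase domain annotated to defence against fungi, was at 1.04, and AT1G76020, of a thioredoxin fold and unknown process, at -0.81, in the authors' deposited table for crwn1 crwn2. ACHT5 and AT5G38900 overlap other annotated genes on the opposite strand, which makes their values uncertain.

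Intracellular enzymes that remove peroxide were listed for 3 of 5 members in each mutant. These members were chosen because they are listed for pwo1, crwn1 crwn2 or both, so the counts cannot be read as an enrichment. The catalase CAT3 was lower in both, at -0.84 in pwo1 (edgeR p = 6.99e-05) and -0.81 in crwn1 crwn2 (edgeR p = 2.15e-03) in the authors' deposited tables. Cuffdiff gave -0.79 and -0.55 for it in the authors' deposited tables, and its upper bound of the adjusted p in crwn1 crwn2 was 0.0509 from the edgeR values. The other catalases, CAT1 and CAT2, were listed in neither table. Glutathione peroxidases were higher in crwn1 crwn2, with GPX7 at 1.97 (3.91-fold, edgeR p = 9.21e-05) and GPX2 at 0.61 (edgeR p = 8.68e-05) in the authors' deposited table. Both overlap other annotated genes on the opposite strand, and of 9 genes with such a product in the reference, 2 were listed for crwn1 crwn2 and 0 for pwo1. Among protein-coding reference genes 6.91% were listed for crwn1 crwn2 and 4.38% for pwo1.

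In pwo1 the stromal ascorbate peroxidase SAPX was at 0.50 (edgeR p = 1.50e-03) and AT1G60740, a relative of thioredoxin-dependent peroxidases, at 1.24 (edgeR p = 2.10e-03), in the authors' deposited table. Their upper bounds of the adjusted p from the edgeR values were 0.0576 and 0.0742, and 15.9% of the windows of AT1G60740 are found in a related gene, AT1G65970. The other 7 of the 8 ascorbate peroxidases were listed in neither table. Among protein-coding reference genes 4.38% were listed for pwo1 and 6.91% for crwn1 crwn2. AT4G39830, a multicopper protein annotated as an ascorbate oxidase, which oxidises ascorbate in the cell wall, was at 1.37 in the authors' deposited table for crwn1 crwn2 (2.59-fold, edgeR p = 1.11e-04).

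Germin-like proteins, cupin-fold glycoproteins of the extracellular matrix, included large changes in both directions. GLP5 (AT1G09560), a plasmodesmal protein that controls the allocation of resources between primary and lateral root meristems, was at 1.19 in pwo1 (edgeR p = 3.82e-11) and 1.46 in crwn1 crwn2 (edgeR p = 5.92e-16) in the authors' deposited tables. GER3, whose transcript is more abundant in the evening, was at 1.15 in the authors' deposited table for pwo1 (2.21-fold, edgeR p = 9.84e-10). GLP9 was at -2.01 in the authors' deposited table for pwo1 (0.248 of the Col-0 level, edgeR p = 3.97e-05), the largest fall of the redox genes listed for that mutant. GLP4, annotated with possible oxalate oxidase activity, was at -1.83 in the authors' deposited table for crwn1 crwn2 (0.282 of the Col-0 level, edgeR p = 9.30e-04) and overlaps a gene on the other strand. Of 11 germin-like products in the reference, 3 (27.3%) were listed for pwo1 and 2 (18.2%) for crwn1 crwn2. Among protein-coding reference genes 4.38% and 6.91% were listed.

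The keywords also took in 3 genes whose products have other functions. FLN1, a fructokinase-like protein named as a possible target of thioredoxin z, was at 0.65 in the authors' deposited table for pwo1. CM1, a chorismate mutase whose deposited description reads as an ascorbate peroxidase, was at 0.68, and SRG1, a senescence-related gene of the iron and ascorbate dependent oxidase family, at 1.01, in the authors' deposited table for crwn1 crwn2. Without these, 15 of 20 redox genes were higher in pwo1 and 17 of 25 in crwn1 crwn2.

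Redox genes listed for both mutants numbered 9, namely PRX71, AT2G37130, GLP5, CAT3, AT2G47880 and 4 genes of the chromosome 4 cluster. The mutants were compared with the same Col-0 samples, so the values of the tables are not independent. The difference between the mutants was tested for the 508 genes in both tables, with a standard error implied by each fold change and edgeR p under a normal approximation and with Benjamini-Hochberg adjustment. None of the 9 redox genes passed an adjusted p of 0.05 by the edgeR values or by Cuffdiff's, while 61 of the 508 genes passed by edgeR, and 1 of the 9 had an unadjusted p under 0.05 by the edgeR values, as did 91 of the 508 genes. The errors of the mutants' fold changes were treated as independent although the Col-0 samples are shared, which makes the error of a difference too large, and its interval too wide, where those errors are positively correlated. The gene among the 9 was the peroxidase AT2G37130, which was higher in crwn1 crwn2 than in pwo1 by 0.59 on the log2 scale (95% interval 0.07 to 1.12, adjusted p = 0.186 from the edgeR values). By the Cuffdiff values its unadjusted p was 0.15 and its adjusted p 0.706. Cuffdiff gave AT2G37130, PRX71, GLP5, AT2G47880, AT4G15680 and AT4G15690 the same p in both mutants, its smallest for any redox gene. CAT3 and AT4G15700 had that smallest p in pwo1 alone. A standard error implied by such a p can be too large, so the Cuffdiff test cannot show that the mutants are alike in these genes. By the edgeR values the difference was 0.50 for PRX71 (95% interval -0.40 to 1.41) and 0.27 for GLP5 (95% interval -0.23 to 0.77). For AT4G15680 the interval ran from -1.17 to 1.85, so the size of any difference in this gene is poorly bounded.

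The other 30 redox genes were listed for 1 mutant alone, 12 for pwo1 and 18 for crwn1 crwn2, and a difference between the mutants was not tested for them.

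**Figure D4:**
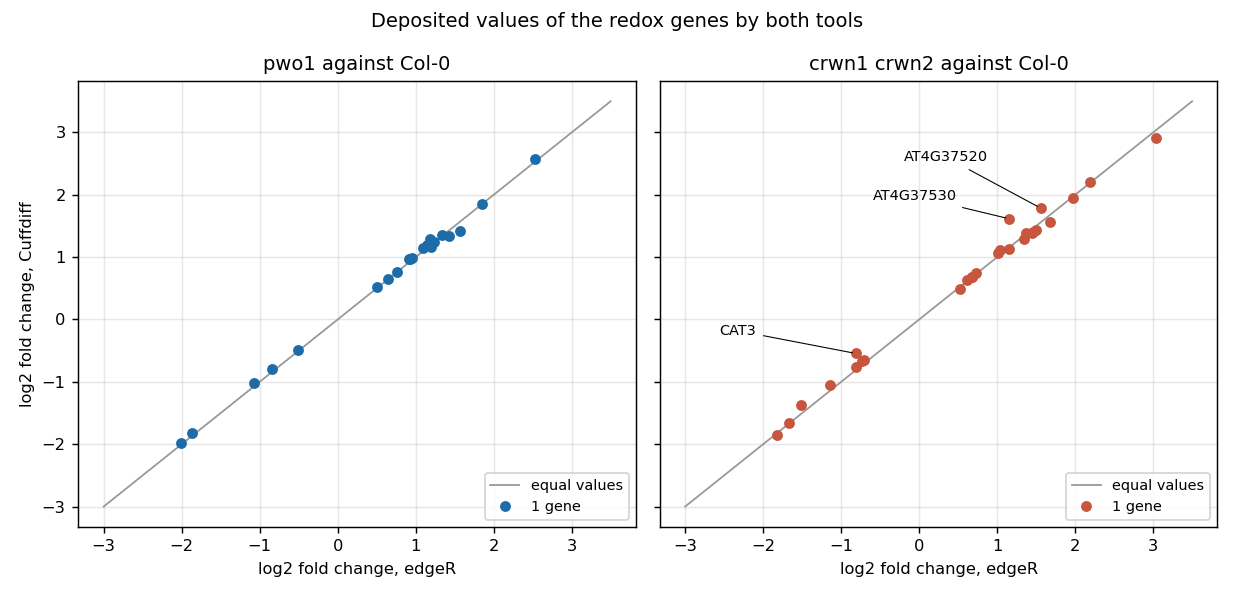
Log2 fold changes (mutant over Col-0) of the redox genes by edgeR (x axis) and by Cuffdiff (y axis), each point 1 gene, with the line of equal values. All points have the same sign by both tools, which is nearly given because listed genes have a small p in both. The largest gap, 0.46, belongs to AT4G37530 in crwn1 crwn2.

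Other genes of reactive oxygen metabolism were followed by lists of genes grouped by pathway. For scale, 4.38% of protein-coding reference genes were listed for pwo1 and 6.91% for crwn1 crwn2. Among all listed genes, 42.5% were higher in pwo1 and 56.5% in crwn1 crwn2. None of the 10 NADPH oxidase genes, which produce superoxide at the plasma membrane, was listed for either mutant. Of 9 genes, superoxide dismutases together with their copper chaperone, 2 were higher in pwo1 and none lower, and 2 were higher and 1 lower in crwn1 crwn2. The copper and zinc enzyme CSD1, whose gene overlaps another in the reference, was higher in both, and the chloroplast iron enzyme FSD2 was at 0.61 in the authors' deposited table for pwo1 (edgeR p = 7.44e-05). In crwn1 crwn2 the copper and zinc enzyme CSD2 and the iron enzyme FSD1 moved apart, at 1.40 and -1.21 in the authors' deposited table. Of 16 genes of ascorbate and glutathione synthesis and recycling, 1 was higher and 1 lower in pwo1, and 1 was higher in crwn1 crwn2. The monodehydroascorbate reductase MDAR6 was at 0.62 and the ascorbate synthesis gene VTC4 at -0.50 in the authors' deposited table for pwo1, and the glutathione reductase GR1, which overlaps other annotated genes, was at 0.86 in that for crwn1 crwn2 (edgeR p = 2.45e-06). Of 7 genes, thioredoxin reductases together with sulfiredoxin, FTRA2 was the 1 listed, in crwn1 crwn2.

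Marker genes of the response to reactive oxygen were higher where listed, 3 of 7 in pwo1 and 4 of 7 in crwn1 crwn2, with none lower. Of protein-coding reference genes 4.38% and 6.91% were listed, and of all listed genes 42.5% and 56.5% were higher. BAP1, a repressor of cell death, was at 1.33 in pwo1 (edgeR p = 2.04e-03) and 1.98 in crwn1 crwn2 (edgeR p = 8.80e-06) in the authors' deposited tables. AT2G21640, annotated as a marker of the oxidative stress response, was at 1.02 and 1.80 in the same deposited tables of the authors. OXI1, a kinase activated by peroxide, was at 1.02 in the authors' deposited table for pwo1. ZAT12, a zinc finger regulator of oxidative and light stress, was at 1.16 and the alternative oxidase AOX1A at 0.54 in the authors' deposited table for crwn1 crwn2. ZAT10 and GSTU24 were listed in neither table.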

How the data were processed

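The data were 2 tables of the authors' comparisons, with no values per library. Per the file headers, each row gives the authors' log2 fold change and p-value by edgeR and by Cuffdiff. Per the submitters' processing notes, tools included Trimmomatic 0.35, TopHat2 2.0.12, HTSeq 0.6.1, edgeR 3.3 and Cuffdiff 2.2.1, with build TAIR10, with roles not given. The sources used here give no normalization, filter or listing threshold. The largest p-value deposited by the authors was 0.00386 (pwo1) and 0.00585 (crwn1 crwn2) by edgeR.

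Fold changes are mutant over Col-0, and the authors' edgeR values were used throughout unless Cuffdiff is named. Members were found by keywords in the descriptions, and 4 protein disulfide isomerase rows were left out. Members and lists were chosen with earlier results of these data known. Genes named are members in both tables, the 8 members with the largest changes in each table and direction, all members of families with 6 or fewer listed, and listed genes of the lists, with other members named by family. Listing in a table was the call, and Benjamini-Hochberg adjustment of the authors' edgeR p-values over 38094 reference genes gave an upper bound of each adjusted p. Names, overlaps and coding sequences came from the RefSeq annotation and genome of TAIR10.1, which keeps the nuclear chromosomes of TAIR10 and held all 39 identifiers. The longest coding sequence of each gene was aligned globally, and its 50-base windows were searched in all others. Python 3.11.15, pandas 2.3.3 and scipy 1.17.1 were used.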

Additional observations from a re-analysis of the deposited data

How the results depend on the processing

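The direction of every redox gene was the same by Cuffdiff. Because listed genes have a small p in both tools, a differing direction could hardly arise, and robustness is not shown by it. Counts in pwo1, from 21 listed, 16 higher and 5 lower, became 13, 8 and 5 with p under 0.001 in both tools, 13, 10 and 3 with at least 2-fold, and 14, 9 and 5 with the bound of the adjusted p under 0.05. The share higher was then 61.5%, 76.9% and 64.3%. Counts in crwn1 crwn2, from 27 listed, 19 higher and 8 lower, became 17, 12 and 5 with p under 0.001 in both tools, 18, 14 and 4 with at least 2-fold, and 24, 18 and 6 with that bound. Leaving out genes that share coding windows with another gene, an alternative chosen after seeing the data, gave 14, 10 and 4 in pwo1 and 17, 12 and 5 in crwn1 crwn2. Leaving out the glutaredoxin cluster, also chosen afterwards, genes overlapping another gene, or genes with a keyword only in later parts of the description kept the counts within 1.5 times. Smaller counts follow from fewer genes being kept. No paired analysis was possible because the tables hold no values per replicate, and for the same reason no replicate could be left out. Depth was not analysed here.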
